A study of Rattus norvegicus with 12 samples.

Results

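The p53 target genes described here are Mdm2, Bbc3, Bax, Ccng1, Sesn1, Gdf15, Btg2, Zmat3 and Tp53inp1, which are 9 of the 33294 genes in the count table and were chosen by symbol. All 9 passed the filter on low counts, among 18438 genes tested. They were measured in PAC1 cells, an established rat pulmonary artery smooth muscle line, in 4 groups of 3 poly(A)-selected RNA-seq libraries. The control group received the negative control siRNA C2, and the other groups an siRNA against RBPMS, RBFOX2 or QKI (gene symbol Qk), all of them RNA-binding proteins that regulate splicing. The study describes these knockdowns in PAC1 cells cultured to be differentiated, with controls less differentiated than those of its other RNA-seq experiment. The labels give 90 pmol of siRNA, with 24 h between the first and second transfection and 48 h from the second to harvest, and the intervals described by the study are longer. Each protein was targeted by 1 siRNA sequence, so the effect of depletion and any other effect of that sequence cannot be told apart. The study describes the libraries of a group as biological replicates. The p-values below rest on the spread between such libraries, estimated over all 4 groups together and moderated across genes.

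p53 is a transcription factor that is stabilised when DNA is damaged or the nucleolus, oncogenes or metabolism put cells under stress. It binds response elements near its target genes and raises genes for cell cycle arrest, DNA repair, antioxidant defence and apoptosis. Mdm2, itself a target, marks p53 for degradation and so closes a negative feedback loop. Several targets also answer to other factors, for example Gdf15 and Sesn2 to ATF4, so their RNA levels are not a direct readout of p53 activity. Protein levels were not measured here.

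The sense strands of the 4 siRNAs, which define the groups, are printed 5′ to 3′ from the study's oligonucleotide list, with no base singled out by capitals.
C2: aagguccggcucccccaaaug
RBPMS: ggcggcaaagccgagaaggcgaaca
RBFOX2: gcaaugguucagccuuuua
QK: ggacuuacagcuaaacaac

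RefSeq promoter windows of the build GRCr8, which run from 250 bases before to 50 bases after the gene start, were on hand for 5 of the 9 genes (Mdm2, Ccng1, Sesn1, Gdf15 and Btg2). Bbc3, Bax, Zmat3 and Tp53inp1 were without an entry. The windows were searched for the p53 consensus element, a tandem of 2 adjacent copies of a 10-base palindrome, with no spacer and the central C and G of each copy required. The element reads the same on both strands. With at most 1 mismatch at the other positions it occurred in 17 of 33469 promoters (0.0508%), and with at most 3 mismatches in 450 (1.34%). The allowed mismatches were set after the windows had been looked at. The Ccng1 window held a match with 1 mismatch that began 242 bases before the start, and the Sesn1 window held one with 3 mismatches that began 172 bases before the start. The window of Cdkn1a, a classical p53 target outside the 9 genes, also held a match with 1 mismatch, 201 bases before the start. The Mdm2, Gdf15 and Btg2 windows held no match, which says only that these letters are not within these 300 bases. A relation of these matches to the changes below was not tested. Btg2, without a match, fell in RBFOX2 and QKI knockdown, and Gdf15, without a match, fell in RBFOX2 knockdown. Cdkn1a, with a match, rose in RBFOX2 and QKI knockdown. The promoters of Ccng1 and Sesn1, whose RNA fell in each knockdown, and of Mdm2, whose RNA rose, are printed on the strand of the gene, with the matched element in capitals.
Ccng1, chr10:25684827-25685126, minus strand: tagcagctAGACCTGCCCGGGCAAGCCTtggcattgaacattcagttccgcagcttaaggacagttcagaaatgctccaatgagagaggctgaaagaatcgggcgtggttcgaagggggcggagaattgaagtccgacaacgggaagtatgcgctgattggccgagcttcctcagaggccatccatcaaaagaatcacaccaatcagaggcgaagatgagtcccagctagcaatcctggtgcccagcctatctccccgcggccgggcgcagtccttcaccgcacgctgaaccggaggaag
Sesn1, chr20:46948469-46948768, plus strand: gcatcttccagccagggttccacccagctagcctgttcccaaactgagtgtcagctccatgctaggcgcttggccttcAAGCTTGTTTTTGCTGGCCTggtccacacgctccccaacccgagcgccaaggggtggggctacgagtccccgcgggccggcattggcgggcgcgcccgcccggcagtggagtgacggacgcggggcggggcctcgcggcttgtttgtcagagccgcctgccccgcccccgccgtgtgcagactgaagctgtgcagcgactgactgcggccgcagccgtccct
Mdm2, chr7:55200742-55201041, minus strand: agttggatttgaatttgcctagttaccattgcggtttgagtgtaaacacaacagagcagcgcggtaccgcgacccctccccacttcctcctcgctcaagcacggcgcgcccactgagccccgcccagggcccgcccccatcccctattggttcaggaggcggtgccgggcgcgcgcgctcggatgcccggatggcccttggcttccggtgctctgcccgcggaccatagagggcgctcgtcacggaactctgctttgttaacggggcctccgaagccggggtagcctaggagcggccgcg

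Library totals ranged from 111 to 152 M counts. Each siRNA target was lowered in its own group, with a log2 fold change of −2.497 for Rbpms, −2.05 for Rbfox2 and −3.13 for Qk. The targets also differed in the other groups. Mean Rbpms was 40.66 CPM in control, 23.14 CPM in RBFOX2 and 29.01 CPM in QKI knockdown. Mean Qk was 233.4 CPM in control, 174 CPM in RBFOX2 and 264.7 CPM in RBPMS knockdown. Mean Rbfox2 was 154.4 CPM in control, 142 CPM in RBPMS and 139.2 CPM in QKI knockdown. The part of these differences in the results below was not tested. The summed level of 7 smooth muscle markers was 2090 to 2150 CPM in control, 1400 to 1490 CPM with QKI depleted, 1040 to 1150 CPM with RBPMS depleted and 804 to 902 CPM with RBFOX2 depleted. Most of it was Acta2, Tagln and Myl9. At an adjusted p of 0.05, 6 markers were lower and 1 higher in RBPMS knockdown, and 5 lower and 2 higher in RBFOX2 knockdown. In QKI knockdown 5 were lower, 1 was higher and 1 did not pass. Of all genes 29.0%, 30.1% and 34.0% were lower and 30.4%, 30.1% and 32.9% higher in that order. Myh11 was higher in each (0.34, 1.05 and 0.19). Its QKI libraries (6.586 to 8.478 CPM) overlapped with control (6.345 to 6.721 CPM). Sums of 4 endothelial markers (4.31 to 9.09 CPM) and 3 leukocyte markers (1.35 to 2.84 CPM) were low throughout, with Kdr and Ptprc at 6 counts or fewer in every library. The 4 epithelial markers summed to 29.5 to 44.2 CPM in 3 of the groups and to 72.0 to 73.9 CPM in RBFOX2 knockdown, nearly all of it Krt8. Epcam was at 0.444 CPM or less in every library. In QKI knockdown Epcam and Cdh1 were higher, at means of 0.368 and 0.391 CPM against 0.0588 and 0.0815 CPM in control. The part of these marker differences in the results below was not tested.

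In RBPMS knockdown, 6 of the 9 p53 targets passed an adjusted p of 0.05, with Mdm2 higher and Bbc3, Ccng1, Sesn1, Zmat3 and Tp53inp1 lower. Over all genes tested, 30.4% were higher and 29.0% lower by the same rule, so the share that passed in either direction (66.7%) was near that of all genes (59.4%), while the lower direction held 5 of the 9. The shares of all genes, here and below, include genes with few counts, which pass less often. With only genes of a mean of at least 200 counts fitted, 9230 of 12237 passed, a larger share than the 66.7%. The median log2 fold change of the 9 genes was −0.51, against 0.0085 over all genes. None of the 9 also passed an absolute log2 fold change of 1, the additional criterion of the study, which 9.66% of all genes passed. Lower abundance in a bulk library may come from fewer cells that express a gene or from less RNA per cell, and these cannot be told apart.

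In RBFOX2 knockdown, 8 of the 9 genes passed the adjusted p, with Mdm2 higher, 7 lower and Bax not passing. Of all genes 30.1% were higher and 30.1% lower, and 88.9% of the p53 targets passed against 60.3% of all genes. Of genes with a mean of at least 200 counts, 9140 of 12237 passed. The median log2 fold change was −0.51 over the 9 genes and 0.015 over all genes. None passed the additional criterion on the fold change, against 11.7% of all genes.

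In QKI knockdown, 7 of the 9 genes passed, with Mdm2 and Zmat3 higher and Bbc3, Ccng1, Sesn1, Btg2 and Tp53inp1 lower. Of all genes 32.9% were higher and 34.0% lower, and 77.8% of the p53 targets passed against 66.9% of all genes. With a mean of at least 200 counts required, 9813 of 12237 genes passed, a larger share than the 77.8%. The median log2 fold change was −0.47 over the 9 genes and 0.0070 over all genes. Ccng1 and Tp53inp1 passed the criterion on the fold change, 2 of 9 against 17.5% of all genes. The 3 comparisons share the same 3 control libraries, so a high or low control value enters each of them.

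**Figure D1:**
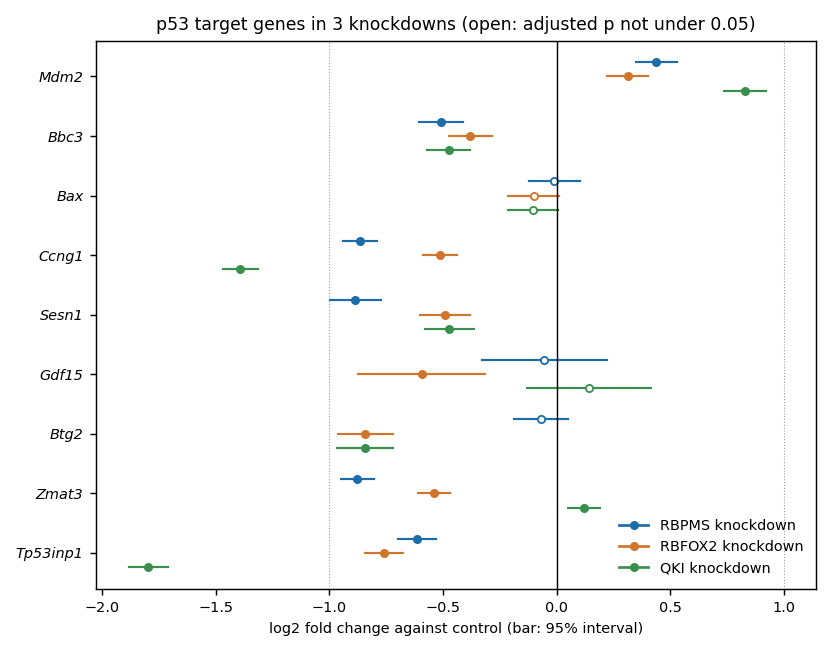
log2 fold change of each of the 9 p53 target genes (rows) against control in RBPMS (blue), RBFOX2 (orange) and QKI (green) knockdown, with 95% intervals, open points not passing an adjusted p of 0.05 and dotted lines at an absolute log2 fold change of 1. Mdm2 lies to the right of 0 in each knockdown, from 0.31 to 0.83, and Tp53inp1 in QKI knockdown lies farthest to the left, at −1.80.

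Mdm2 encodes the ubiquitin ligase that restrains p53. It was measured at 85.5, 88.3 and 81.2 CPM (counts normalised to library size with TMM factors) in the control libraries, 107.7, 120.4 and 117.6 CPM after RBPMS knockdown, 107.2, 104.3 and 105.4 CPM in RBFOX2 knockdown, and 154.6, 146.4 and 152.4 CPM in QKI knockdown. Every knockdown library lay above every control library, and the QKI libraries lay above all others. The log2 fold change against control was 0.44 (SE 0.0429, adjusted p = 1.14e-07) in RBPMS knockdown, 0.31 (SE 0.0428, adjusted p = 6.2e-06) in RBFOX2 knockdown and 0.83 (SE 0.0429, adjusted p = 1.49e-11) in QKI knockdown. In QKI knockdown 12.1% of all genes rose by more. Compared directly, QKI knockdown exceeded RBPMS knockdown by 0.39 (adjusted p = 4.04e-07) and RBFOX2 knockdown by 0.52 (adjusted p = 8.25e-09) on the log2 scale. RBPMS knockdown exceeded RBFOX2 knockdown by 0.13 (adjusted p = 0.0189), a difference that did not pass in 6 alternatives. These were libraries scaled by their totals only (0.027, adjusted p = 0.62), the normalised table with both pseudocounts (0.054 in each, adjusted p = 0.333 and 0.332), genes with a mean of at least 200 counts (0.093, adjusted p = 0.0624), and fits without RBPMS-KD 2 (0.093, adjusted p = 0.0503) or RBPMS-KD 3 (0.11, adjusted p = 0.0633).

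**Figure D2:**
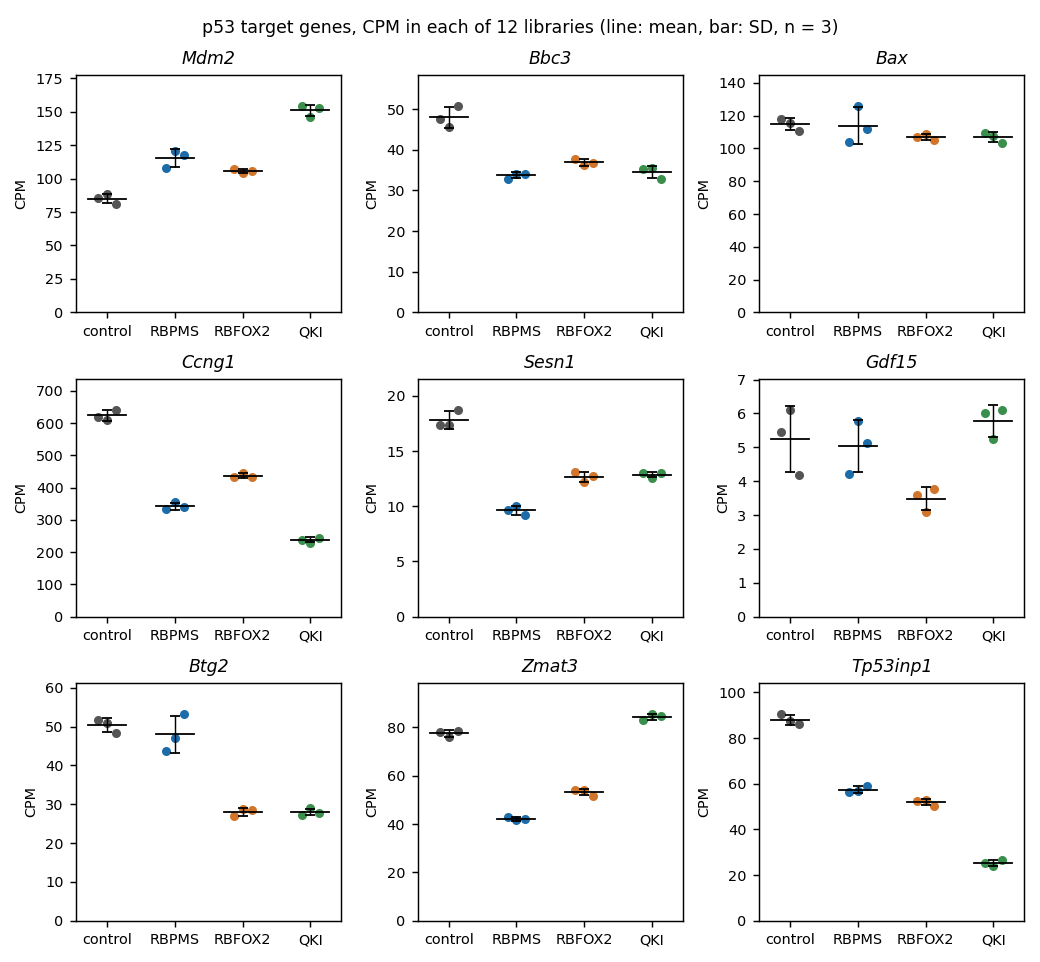
CPM of the 9 p53 target genes in each library (points), with the mean (line) and SD (bar) of 3 libraries per group. The knockdown libraries lie above control for Mdm2 and below control for Bbc3, Ccng1, Sesn1 and Tp53inp1, while Zmat3 lies below control in RBPMS and RBFOX2 knockdown and just above it in QKI knockdown.

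Bbc3 and Bax belong to the apoptotic arm. Bbc3, which encodes the BH3-only protein PUMA, was measured at 47.5, 45.7 and 50.9 CPM in control, 32.9, 34.1 and 34.1 CPM after RBPMS knockdown, 37.7, 36.2 and 36.7 CPM in RBFOX2 knockdown, and 35.3, 35.5 and 32.8 CPM in QKI knockdown. All knockdown libraries lay below all control libraries. Its log2 fold change was −0.51 (SE 0.045, adjusted p = 3.33e-08) in RBPMS knockdown, −0.38 (SE 0.0447, adjusted p = 1.06e-06) in RBFOX2 knockdown and −0.47 (SE 0.0449, adjusted p = 4.97e-08) in QKI knockdown. RBPMS knockdown was lower than RBFOX2 knockdown by −0.13 (adjusted p = 0.0228), which did not pass without RBPMS-KD 1 (adjusted p = 0.0757), RBFOX2-KD 1 (adjusted p = 0.0933) or RBFOX2-KD 3 (adjusted p = 0.0545). RBPMS and QKI knockdown differed by −0.034 (adjusted p = 0.534), a difference that passed with library totals (−0.16, adjusted p = 0.00378) and in the normalised table (−0.14, adjusted p = 0.0111 and 0.0109). RBFOX2 and QKI knockdown differed by 0.094 (adjusted p = 0.0746), which passed with the 6 libraries of the comparison alone (0.088, adjusted p = 0.0303).

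Bax encodes the pore-forming protein that permeabilises mitochondria, and it was the one gene of the 9 that passed in no comparison of the fit to all 12 libraries. Its level was 117.7, 115.8 and 110.9 CPM in control, 104, 126 and 112 CPM after RBPMS knockdown, 107.1, 108.8 and 105.3 CPM in RBFOX2 knockdown, and 109.4, 107.7 and 103.5 CPM in QKI knockdown. The RBPMS libraries spanned the control libraries, while the RBFOX2 and QKI libraries lay just below them. The 95% interval of the log2 fold change ran from −0.12 to 0.10 in RBPMS knockdown, −0.21 to 0.010 in RBFOX2 knockdown and −0.21 to 0.0082 in QKI knockdown, with adjusted p = 0.886, 0.11 and 0.0943. RBPMS-KD 2 was the highest of the 12 libraries, and without it the change in RBPMS knockdown was −0.092 (adjusted p = 0.0322). The RBFOX2 and QKI changes passed when only the 6 libraries of the comparison were fitted (adjusted p = 0.00845 and 0.00807) and without a filter on low counts (adjusted p = 0.0273 and 0.0203). Both also passed in fits without RBPMS-KD 1 or without RBPMS-KD 2, libraries outside these comparisons that enter the shared estimate of spread. Without RBPMS-KD 1, the lowest RBPMS library, RBPMS knockdown exceeded RBFOX2 knockdown by 0.15 (adjusted p = 0.0114) and QKI knockdown by 0.16 (adjusted p = 0.00969).

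Ccng1 and Btg2 act on the cell cycle. Ccng1, which encodes cyclin G1, a partner of the phosphatase PP2A, was measured at 619.5, 611 and 642 CPM in control, 333, 355 and 339 CPM after RBPMS knockdown, 432, 446 and 432 CPM in RBFOX2 knockdown, and 239, 229 and 245 CPM in QKI knockdown. The 4 groups did not overlap, and their order from high to low was control, RBFOX2, RBPMS and QKI knockdown. The log2 fold change was −0.87 (SE 0.0356, adjusted p = 2.16e-12) in RBPMS knockdown, −0.51 (SE 0.0354, adjusted p = 1.18e-09) in RBFOX2 knockdown and −1.39 (SE 0.0361, adjusted p = 1.71e-15) in QKI knockdown, where the level was 38.1% of control. In QKI knockdown 5.36% of all genes fell by more. Each pair of knockdowns differed as well, RBPMS from RBFOX2 by −0.35 (adjusted p = 2.46e-07), RBPMS from QKI by 0.53 (adjusted p = 8.97e-10) and RBFOX2 from QKI by 0.88 (adjusted p = 6.61e-13).

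Btg2, an antiproliferative gene that acts with the CCR4-NOT deadenylase, was measured at 51.7, 51.0 and 48.3 CPM in control, 43.8, 47.1 and 53.3 CPM after RBPMS knockdown, 27.0, 28.7 and 28.6 CPM in RBFOX2 knockdown, and 27.3, 29.0 and 27.8 CPM in QKI knockdown. The RBPMS libraries overlapped with control, and the RBFOX2 and QKI libraries lay below both. The log2 fold change was −0.84 (SE 0.0576, adjusted p = 1.11e-09) in RBFOX2 knockdown and −0.84 (SE 0.0578, adjusted p = 6.67e-10) in QKI knockdown. In RBPMS knockdown it was −0.068 (95% interval −0.19 to 0.052, adjusted p = 0.324), and −0.15 without RBPMS-KD 3 (adjusted p = 0.0179). RBPMS knockdown was higher than RBFOX2 knockdown by 0.77 (adjusted p = 6.42e-09) and than QKI knockdown by 0.78 (adjusted p = 3.28e-09). RBFOX2 and QKI knockdown differed by 0.0027 (95% interval −0.12 to 0.13).

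Sesn1 and Tp53inp1 serve stress defence and autophagy. Sesn1, which encodes sestrin 1, a restraint on mTORC1, was measured at 17.3, 17.4 and 18.7 CPM in control, 9.64, 10.1 and 9.21 CPM after RBPMS knockdown, 13.1, 12.2 and 12.7 CPM in RBFOX2 knockdown, and 13, 12.6 and 12.97 CPM in QKI knockdown. Control libraries were highest, RBPMS libraries lowest, and RBFOX2 and QKI libraries overlapped in between. Its log2 fold change was −0.89 (SE 0.0528, adjusted p = 2.32e-10) in RBPMS knockdown, −0.49 (SE 0.0515, adjusted p = 2.65e-07) in RBFOX2 knockdown and −0.47 (SE 0.0517, adjusted p = 3.24e-07) in QKI knockdown. RBPMS knockdown was lower than RBFOX2 knockdown by −0.39 (adjusted p = 7e-06) and than QKI knockdown by −0.41 (adjusted p = 3.14e-06). RBFOX2 and QKI knockdown differed by −0.020 (95% interval −0.13 to 0.091), and by −0.16 in the normalised table (adjusted p = 0.0139 and 0.0141 with the pseudocounts 1 and 5).

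Tp53inp1, whose product promotes autophagy and p53-dependent cell death, had the largest change of the 9 genes in QKI knockdown. It was measured at 90.6, 87.4 and 86.0 CPM in control, 56.5, 56.8 and 59.2 CPM after RBPMS knockdown, 52.5, 52.7 and 50.5 CPM in RBFOX2 knockdown, and 25.4, 24.1 and 26.4 CPM in QKI knockdown. No 2 groups overlapped, and QKI knockdown stood at 28.8% of control. Against control, its log2 fold change was −0.61 (SE 0.0393, adjusted p = 5.71e-10) in RBPMS knockdown, −0.76 (SE 0.0393, adjusted p = 2.78e-11) in RBFOX2 knockdown and −1.80 (SE 0.041, adjusted p = 3.63e-16) in QKI knockdown, where 2.87% of all genes fell by more. QKI knockdown was also lower than the other knockdowns, with RBPMS knockdown above it by 1.18 (adjusted p = 1.15e-13) and RBFOX2 knockdown by 1.04 (adjusted p = 4.14e-13). RBPMS and RBFOX2 knockdown differed by 0.15 (adjusted p = 0.00433), which did not pass when libraries were scaled by their totals only (0.048, adjusted p = 0.33) or in the normalised table (0.071 with both pseudocounts, adjusted p = 0.165 and 0.163).

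Zmat3 encodes a zinc-finger RNA-binding protein that p53 induces. It was measured at 78.1, 76.1 and 78.6 CPM in control, 43.0, 41.5 and 42.2 CPM after RBPMS knockdown, 54.1, 54.2 and 51.8 CPM in RBFOX2 knockdown, and 83.1, 85.6 and 84.7 CPM in QKI knockdown. The groups did not overlap, and QKI knockdown was the only one above control. Against control, its log2 fold change was −0.88 (SE 0.0341, adjusted p = 1.05e-12) in RBPMS knockdown, −0.54 (SE 0.0337, adjusted p = 3.25e-10) in RBFOX2 knockdown and 0.12 (SE 0.0334, adjusted p = 0.00369) in QKI knockdown. The rise in QKI knockdown was 0.21 with libraries scaled by their totals only. RBPMS knockdown was lower than RBFOX2 knockdown by −0.34 (adjusted p = 2.48e-07) and lower than QKI knockdown by −1.001 (adjusted p = 1e-13), and RBFOX2 knockdown was lower than QKI knockdown by −0.66 (adjusted p = 1.27e-11).

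Gdf15 encodes a secreted stress cytokine and had the fewest counts of the 9 genes, 435 to 910 per library. It was measured at 5.45, 6.11 and 4.18 CPM in control, 4.22, 5.77 and 5.12 CPM after RBPMS knockdown, 3.59, 3.10 and 3.75 CPM in RBFOX2 knockdown, and 6.03, 5.25 and 6.10 CPM in QKI knockdown. The RBFOX2 libraries were the lowest, and the other groups overlapped. The log2 fold change was −0.59 (SE 0.132, adjusted p = 0.000872) in RBFOX2 knockdown, and RBFOX2 knockdown was also lower than RBPMS knockdown, which exceeded it by 0.54 (adjusted p = 0.00233), and than QKI knockdown by −0.74 (adjusted p = 9.09e-05). In RBPMS knockdown the change was −0.055 (95% interval −0.33 to 0.22, adjusted p = 0.741) and in QKI knockdown 0.14 (95% interval −0.13 to 0.41, adjusted p = 0.342). In the normalised table the QKI change passed, at 0.32 with both pseudocounts (adjusted p = 0.0453 and 0.0478). RBPMS and QKI knockdown differed by −0.20 (adjusted p = 0.201), which passed with library totals (−0.33, adjusted p = 0.037) and without RBPMS-KD 2 (−0.31, adjusted p = 0.0497). Of 7 ATF4-response genes (Atf4, Ddit3, Trib3, Chac1, Asns, Atf3 and Ppp1r15a), 7 were higher in RBPMS knockdown, 1 was higher and 2 were lower in RBFOX2 knockdown, and 6 were higher in QKI knockdown, where 30.4%, 30.1% and 32.9% of all genes were higher in that order. Among them Trib3 (1.60) and Ddit3 (1.36) rose the most in RBPMS knockdown and Chac1 (1.05) in QKI knockdown.

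Counted over the direct comparisons, 8 of the 9 genes differed between RBPMS and RBFOX2 knockdown, 4 higher and 4 lower, against 56.7% of all genes tested. Between RBPMS and QKI knockdown 6 differed, 3 higher and 3 lower, against 61.0% of all genes. Between RBFOX2 and QKI knockdown 5 differed, 2 higher and 3 lower, against 68.5% of all genes. Under library totals and in the normalised table, 2 genes were higher and 4 lower in RBPMS against RBFOX2 knockdown, and under library totals 3 were higher and 5 lower in RBPMS against QKI knockdown. The share of 6 of 9 (66.7%) is near the background and that of 5 of 9 (55.6%) below it. That of 8 of 9 (88.9%) is above it in the main fit, with fewer genes passing under library totals and in the normalised table. Shares among genes with a mean of at least 200 counts were not computed for the direct comparisons. The median log2 difference over the 9 genes was 0.091, −0.034 and 0.0024 in the same order, and over all genes −0.0096, 0.010 and 0.0073.

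Ratios of counts within a library do not depend on how libraries are scaled. Mdm2 rose and Ccng1 fell in each knockdown above, so a higher ratio there follows from those values and is no separate evidence. Mdm2 had 13.8, 14.5 and 12.7 counts per 100 Ccng1 counts in control, 24.8, 23.4 and 24.4 with RBFOX2 depleted, 32.3, 33.9 and 34.7 with RBPMS depleted, and 64.8, 63.8 and 62.2 with QKI depleted. The 4 groups did not overlap, and their means were 13.7 ± 0.907, 24.2 ± 0.721, 33.6 ± 1.22 and 63.6 ± 1.31 (SD, n = 3). Relative to 100 Zmat3 counts, Mdm2 had 109 ± 6.51 in control, 273 ± 20.1 in RBPMS knockdown, 198 ± 5.51 in RBFOX2 knockdown and 179 ± 7.55 in QKI knockdown (SD, n = 3). The groups did not overlap by this ratio either, but RBPMS knockdown was the highest. Gene length enters both ratios, so they were compared between groups and not between genes.

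**Figure D3:**
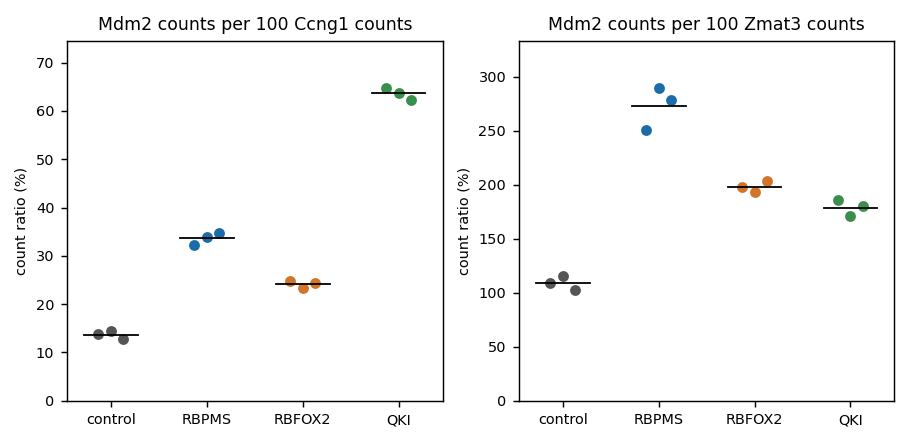
Mdm2 counts per 100 Ccng1 counts (left) and per 100 Zmat3 counts (right) in each of the 12 libraries, with group means as lines. The ratio to Ccng1 rises from 13.7 in control to 63.6 in QKI knockdown without overlap of groups, while the ratio to Zmat3 is highest in RBPMS knockdown, at 273 against 109 in control.

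The paralogues of these genes did not all follow them. Mdm4, which encodes the partner of Mdm2 in restraining p53, changed by 0.35 (adjusted p = 1.1e-06) in RBPMS, −0.17 (adjusted p = 0.0015) in RBFOX2 and 0.12 (adjusted p = 0.0153) in QKI knockdown. Sesn2, at 103 to 116 CPM in control and 38.8 to 42.1 CPM in RBFOX2 knockdown, fell there by 1.45 on the log2 scale (adjusted p = 2.9e-13), rose by 0.34 (adjusted p = 1.39e-05) in QKI knockdown and was at 0.027 (adjusted p = 0.672) in RBPMS knockdown. Sesn3 was lower in each knockdown, by −0.43, −0.22 and −1.19 in RBPMS, RBFOX2 and QKI knockdown. Ccng2, the other cyclin G gene, was lower in RBPMS (−0.39) and QKI (−1.14) knockdown, like Ccng1, but higher in RBFOX2 knockdown (0.52, adjusted p = 8.16e-09). Tp53inp2 was lower in each knockdown, by −0.50, −0.18 and −0.94 in the same order, with the lowest value in QKI knockdown as for Tp53inp1. The Btg paralogues differed from Btg2, with Btg1 at 0.23, −0.075 (adjusted p = 0.125) and −0.18, and Btg3 at −0.36, −0.38 and 0.32.

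Of 28 other p53 targets, 26 were tested, since Perp had 0 counts in every library and Sfn had no row. In RBPMS knockdown 12 were higher and 10 lower, in RBFOX2 knockdown 7 were higher and 15 lower, and in QKI knockdown 6 were higher and 15 lower. Their median log2 fold change was 0.10, −0.30 and −0.20 in that order, against 0.0085, 0.015 and 0.0070 over all genes. Passing were 84.6%, 84.6% and 80.8% of the list, against 59.4%, 60.3% and 66.9% of all genes tested. Among genes with a mean of at least 200 counts, 9230, 9140 and 9813 of 12237 passed, in QKI knockdown about the share of the list. Eda2r, a receptor of the tumour necrosis factor family, fell the most in each knockdown, from 26.8 to 31.4 CPM in control to 10.5 CPM or less in RBPMS, 10.7 CPM or less in RBFOX2 and 9.18 CPM or less in QKI knockdown. Its log2 fold change was −1.52 (adjusted p = 1.51e-12), −1.48 (adjusted p = 1.22e-12) and −1.72 (adjusted p = 9.95e-14).

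Gadd45a, a stress gene of repair and growth arrest, went the other way, at 23.2 to 31.1 CPM in control, 80.9 to 95.8 CPM with RBPMS, 45.7 to 48.2 CPM with RBFOX2 and 68.2 to 74.8 CPM with QKI depleted. Its log2 fold change was 1.70 (adjusted p = 1.65e-11), 0.77 (adjusted p = 2.81e-07) and 1.38 (adjusted p = 9.11e-11). Rrm2b, the p53-induced subunit of ribonucleotide reductase, was higher in RBPMS (0.83) and RBFOX2 (1.64) knockdown and lower in QKI knockdown (−0.42, adjusted p = 0.000138). Cdkn1a, which encodes the CDK inhibitor p21, was at 202 to 217 CPM in control and changed by 0.092 (adjusted p = 0.107) in RBPMS, 0.35 (adjusted p = 6.74e-06) in RBFOX2 and 0.24 (adjusted p = 0.000273) in QKI knockdown. The death receptor genes Fas and Tnfrsf10b were lower in each knockdown, Fas by −0.42, −0.37 and −0.37 and Tnfrsf10b by −0.45, −0.56 and −0.90. These genes therefore moved in both directions within each knockdown.

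**Figure D4:**
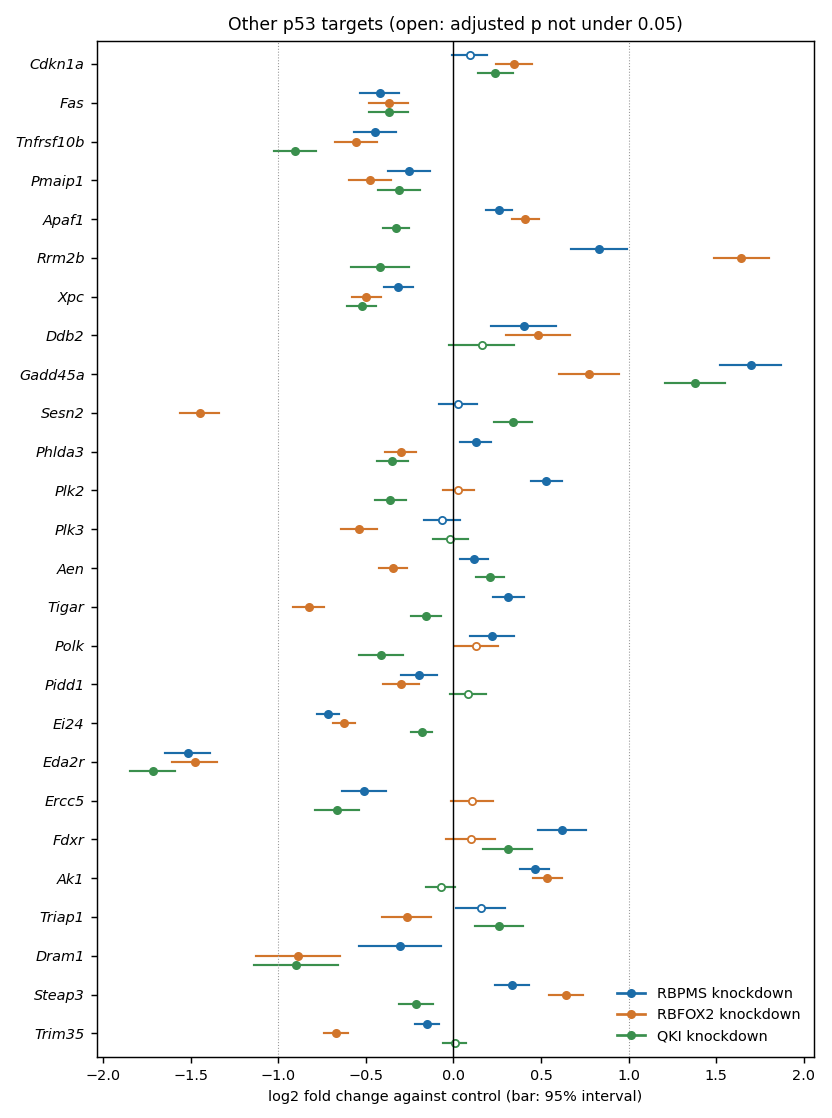
log2 fold change with 95% interval of the 26 other p53 targets tested (rows) in RBPMS (blue), RBFOX2 (orange) and QKI (green) knockdown, with open points not passing an adjusted p of 0.05. Eda2r lies left of −1 in each knockdown and Gadd45a to the right of 0, with Rrm2b at 1.64 in RBFOX2 knockdown and −0.42 in QKI knockdown.

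Of 20 regulators of p53, 18 were tested, with Tp63 and Tp73 at 10 counts or fewer in every library. In RBPMS knockdown 10 were higher and 4 lower, in RBFOX2 knockdown 7 were higher and 7 lower, and in QKI knockdown 8 were higher and 6 lower, with medians of 0.15, −0.037 and 0.061 against 0.0085, 0.015 and 0.0070 over all genes. In each knockdown 77.8% of these regulators passed, against 59.4%, 60.3% and 66.9% of all genes. Among genes with a mean of at least 200 counts, 9230, 9140 and 9813 of 12237 passed, shares near that of the regulators. None passed the criterion on the fold change. Chek1, the replication checkpoint kinase, was higher in each knockdown, by 0.93, 0.59 and 0.83 in RBPMS, RBFOX2 and QKI knockdown. Atm, the kinase that answers to DNA double-strand breaks, was higher by 0.59, 0.57 and 0.18. The deubiquitinase gene Usp7 was lower by −0.35, −0.42 and −0.15 and the phosphatase gene Ppm1d by −0.17, −0.33 and −0.27. Cdkn2a, whose products include the Mdm2 inhibitor ARF, was lower by −0.34, −0.21 and −0.46. Counts are per gene, so the fall of Cdkn2a cannot be assigned to the ARF transcript. Hipk2, a kinase that phosphorylates p53, was lower in QKI knockdown at −0.75 (adjusted p = 2.25e-05).

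Of 14 further BCL2 family genes, 13 were tested, with Bcl2a1 at 10 counts or fewer in every library. In RBPMS knockdown 3 were higher and 7 lower, in RBFOX2 knockdown 3 were higher and 9 lower, and in QKI knockdown 4 were higher and 8 lower, with medians of −0.25, −0.20 and −0.38. Passing were 76.9%, 92.3% and 92.3% of this family, against 59.4%, 60.3% and 66.9% of all genes. Among genes with a mean of at least 200 counts, 9230, 9140 and 9813 of 12237 passed in that order. Bak1, which shares the pore-forming role of Bax, was higher in each knockdown, by 0.40, 0.46 and 0.77 in RBPMS, RBFOX2 and QKI knockdown. Pmaip1, which encodes the BH3-only protein NOXA and also belongs to the p53 targets above, was lower by −0.25, −0.47 and −0.31, as Bbc3 was. Bcl2l11, which encodes BIM, was higher, most in RBFOX2 knockdown (0.24, 0.98 and 0.26). Among the protective members, Bcl2l1 was lower by −0.31, −0.21 and −0.38, Bcl2l2 by −0.95, −0.41 and −0.38, and Bcl2 by −0.40, −0.20 and −0.86. Mcl1 was higher in RBPMS knockdown (0.31) and lower in RBFOX2 (−0.11) and QKI (−0.87) knockdown. Bik passed as lower in RBPMS (−1.24) and RBFOX2 (−2.10) knockdown but lay at 0.342 CPM or less in every library.

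**Figure D5:**
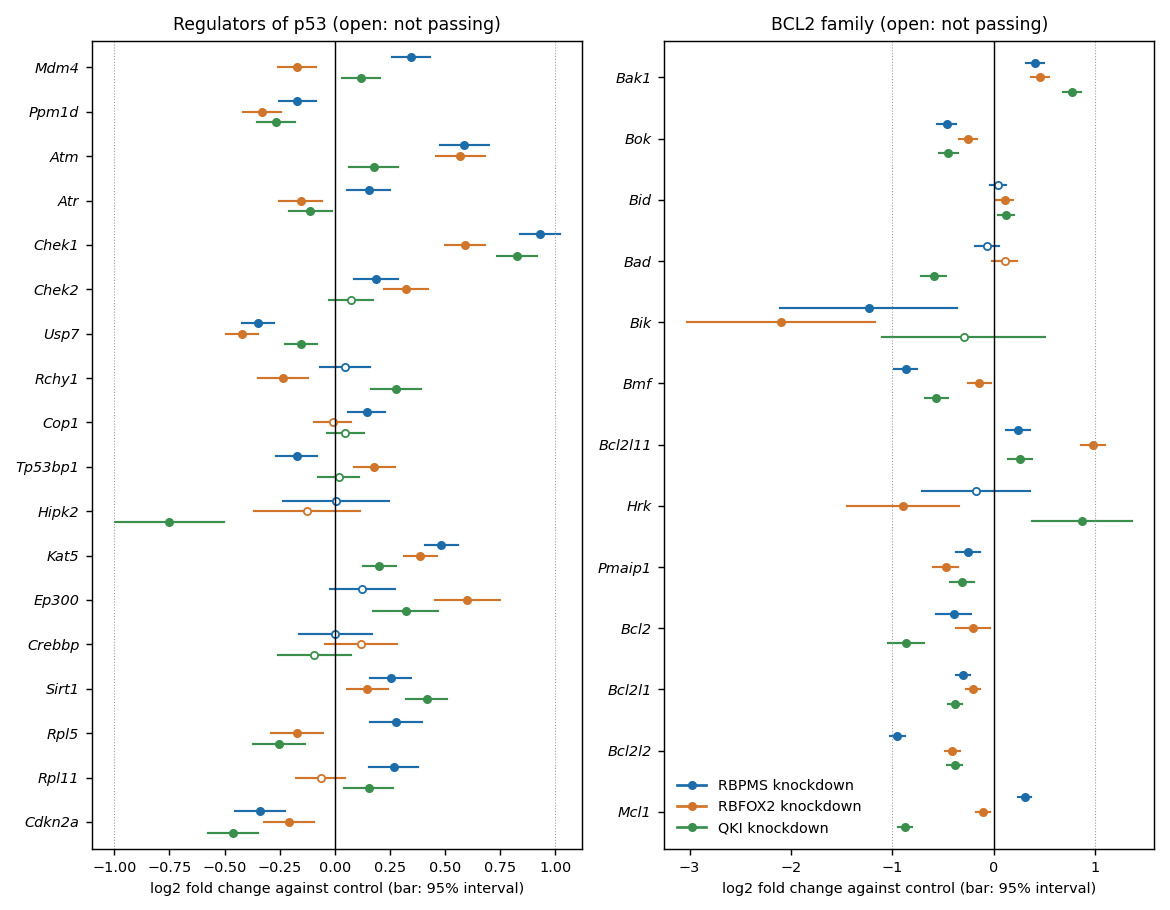
log2 fold change with 95% interval of 18 regulators of p53 (left) and 13 BCL2 family genes (right) in RBPMS (blue), RBFOX2 (orange) and QKI (green) knockdown, with open points not passing an adjusted p of 0.05. Chek1 and Bak1 lie right of 0 in each knockdown, and Bik, at 0.342 CPM or less, has the widest intervals.

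The genes whose log2 CPM followed each p53 target most closely over the 12 libraries were ranked by Pearson's r among the 10046 genes (10047 for Gdf15) with a mean of at least 5 CPM. The libraries form 4 groups, so these values rest mostly on 4 group means and are given as a description. The nearest gene was Dvl2 for Mdm2 (r = 0.996), Hoxb2 for Bbc3 (r = 0.98), Micos13 for Bax (r = 0.927), Tctn2 for Ccng1 (r = 0.997), Laptm4b for Sesn1 (r = 0.985), Rpusd3 for Gdf15 (r = 0.943), Ano6 for Btg2 (r = 0.984), Slc39a9 for Zmat3 (r = 0.994) and Timp2 for Tp53inp1 (r = 0.996). Next came Slc43a2 and Habp4 for Mdm2, Colgalt1 and Kcne4 for Bbc3, Vamp8 and Creb3 for Bax, Slc12a9 and Vgll4 for Ccng1, Slc44a2 and Syngr2 for Sesn1, Atp6v1f and Cenpx for Gdf15, Esco1 and Fkbp7 for Btg2, Lpcat3 and Rassf2 for Zmat3, and Stk40 and Cmas for Tp53inp1. None of the 9 genes was the nearest of another, though Gdf15, with a mean below 5 CPM, was not among the genes searched.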

How the data were processed

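RNA of rat PAC1 cells was sequenced after siRNA transfection, in 4 groups of 3 libraries taken from the sample titles. Reads were aligned by the authors with STAR to mRatBN7.2, and raw counts per gene were deposited, with a normalised signal table made by a noise filter and quantile normalisation. The submitters' processing notes list STAR 2.5.2a, and the study's methods name another version. Whether counting used strand, and how reads shared by overlapping or paralogous genes were treated, is not given in the sources used here. All 9 symbols occur in a RefSeq gene table of GRCr8, a build other than the authors'.

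Differences in counts were assessed by edgeR 4.0.16 under R 4.3.3 (filterByExpr by group, TMM, glmQLFit and glmQLFTest, two-sided) in a single fit of all 12 libraries, with Benjamini-Hochberg adjustment over 18438 genes. CPM are counts scaled to the TMM-adjusted total (factors 0.948 to 1.05), and CPM are not corrected for gene length, so they were compared within a gene. Totals of 111 to 152 M counts set the precision, for counting error only. Even numbers made up 68.1% of the low counts (1 to 19) but 50.93% of those over 1000, and after this had been seen halved counts were fitted too. The totals exceed the depth to which the study describes subsampling. With 3 libraries against 3, an exact permutation test cannot give a p below 0.1, so p-values rest on the model. Fits were tested on simulated data. All 12 replicate pairs differed by more than sampling noise (chi-square divided by its degrees of freedom, 4.64 to 57.8). Alternatives used DESeq2 1.42.0, limma 3.58.1 on the normalised table, other filters and scalings, a replicate block, the 6 libraries of a comparison alone, and each library left out.

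The 9 genes and the lists of other p53 targets, p53 regulators, BCL2 family genes, paralogues, ATF4-response genes and cell type markers were chosen with earlier results of these data known. Named were the 9 genes, Mdm4, Cdkn1a, the paralogues, the siRNA targets, the nearest genes by correlation and, per list and knockdown, the 2 largest rises and falls past an adjusted p of 0.05 and an absolute log2 fold change of 1 with libraries that do not overlap. Fas, Tnfrsf10b, the p53 regulators and the BCL2 family genes named beside these were chosen after their values were seen. Some genes that belong to these lists are not reported here.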

Additional observations from a re-analysis of the deposited data

How the results depend on the processing

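Taken in both directions together, no count of p53 targets, or of genes of the other lists, that passed moved by more than 1.5 times under any alternative. In these counts, the 864 fold changes and the ranges below, a library was left out only where it belonged to a compared group. By direction, the 4 higher genes in RBPMS against RBFOX2 knockdown became 2 with library totals or the normalised table, and the 3 lower genes in RBPMS against QKI knockdown became 5 with library totals. In fits without RBPMS-KD 1 or RBPMS-KD 2, not counted here, the lower genes went from 7 to 8 in RBFOX2 and from 5 to 6 in QKI knockdown. The higher genes in RBFOX2 against QKI knockdown went from 2 to 3 without RBPMS-KD 2. Of 864 fold changes of the 9 genes recomputed under the alternatives, 803 kept their direction and side of the threshold, 18 came to pass, 12 ceased to pass and 31 changed sign. Those that changed sign were values near 0 of Bax, Gdf15 and Btg2 that passed neither before nor after, and the cause was not tested. Gdf15 in RBPMS knockdown became 0.034 in the normalised table with a pseudocount of 1 and 0.034 with 5. Bax became −0.0085 (RBPMS against RBFOX2 knockdown) and −0.038 (RBPMS against QKI knockdown) with library totals only. Between RBFOX2 and QKI knockdown, Bax was −0.011 with RLE size factors, −0.029 with library totals, −0.011 with DESeq2, −0.0096 with a mean of at least 200 counts, −0.0099 with halved counts and −0.0031 with 6 libraries. Btg2 there was −0.011, −0.029, −0.011, −0.0093, −0.0094 and −0.0024 under these settings, and −0.068 and −0.068 in the normalised table with both pseudocounts. With each library left out in turn, the values were −0.196 to 0.072 for Gdf15 and −0.092 to 0.051 for Bax in RBPMS knockdown, 0.0099 to 0.153 and 0.012 to 0.156 for Bax in RBPMS against RBFOX2 and QKI knockdown, and −0.028 to 0.012 for Bax and −0.024 to 0.026 for Btg2 in RBFOX2 against QKI knockdown. Scaling by library totals moved the median of all genes to −0.108 (RBPMS against RBFOX2 knockdown) and −0.12 (RBPMS against QKI knockdown), so changes under it are relative to that shift. With a replicate block, 6, 8 and 7 of the 9 genes passed in RBPMS, RBFOX2 and QKI knockdown, as without it. The replicate numbers showed no pairing over all genes tested. Deviations of same-numbered libraries from their group means correlated at −0.0545 to 0.0389 (18 pairs) and of others at −0.0425 to 0.0505 (36 pairs). Every gene had equal weight in these correlations, genes with few counts included, so pairing among well-counted genes alone was not tested. Gdf15 had the fewest counts and the largest SE of the 9 genes, 0.128 to 0.133 on the log2 scale, and the part of depth in it was not tested.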
